A study of Mus musculus with 15 samples.

Results

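The hair and epidermal keratins and the keratin-associated proteins (Krtap) were followed in mouse embryonic stem (ES) cells with and without DNA methylation. Members were all array probes named for a keratin or a Krtap gene, with the simple epithelial keratins Krt8, Krt18 and Krt19 left out. On the expression array 74 of 41174 probes were members, 40 for keratins and 34 for Krtap genes, and they measured 57 of 27703 genes, namely 31 keratins and 26 Krtap genes. On the promoter arrays 205 of 80567 probes were members, 129 named for keratins and 76 for Krtap genes. These gave 37 promoters with enough probes to test, 24 of keratins and 13 of Krtap genes, of 14635 promoters in all. A further 8 member regions had under 3 probes and were not tested (among them Krtap3-2, Krtap16-1, Krtap16-3 and Krt2-18), and 4 probes that carried a Krtap name lay nearest the start of another gene.

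The wild-type cells were the J1 line, and TKO was a methylation-deficient line, known for the loss of the DNA methyltransferases Dnmt1, Dnmt3a and Dnmt3b. Both were kept in serum with LIF and grown without feeder cells for 2 passages before DNA or RNA was taken, and the 7 replicates were different passages, so the comparison is between 2 lines and p-values measure the spread between passages. Methylated DNA was immunoprecipitated (MeDIP) from both lines and compared on 7 two-colour arrays for each of 2 sets of promoters, here part 1 and part 2. RNA from the same cultures was compared on 3 two-colour arrays, with the dyes swapped on replicate 2.

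Keratins are the intermediate filament proteins of epithelia. A type I keratin pairs with a type II keratin, epithelial keratins fill the layers of the epidermis and other lining tissues, and hair keratins build the hair shaft and the inner root sheath. Krtap proteins are cysteine-rich or glycine- and tyrosine-rich and form the matrix between the hair keratin filaments. In the mouse, type I keratin genes lie together on chromosome 11 and type II genes on chromosome 15, and Krtap genes lie in several clusters.

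The promoters below are shown because they carry the results: Krt84 was the member promoter farthest from 0 in MeDIP, Krt2 and Krtap4-7 were among the next, Krt14 and Krt7 had the largest increases of RNA in TKO cells, and Krt20 was the member whose RNA fell. Each line gives the 250 bases before the RefSeq start in GRCm38.p6, read 5′ to 3′ along the gene, with CpG dinucleotides, the sites of DNA methylation in mammals, in capitals.
Krt84 (chr15:101532821-101533070, minus strand): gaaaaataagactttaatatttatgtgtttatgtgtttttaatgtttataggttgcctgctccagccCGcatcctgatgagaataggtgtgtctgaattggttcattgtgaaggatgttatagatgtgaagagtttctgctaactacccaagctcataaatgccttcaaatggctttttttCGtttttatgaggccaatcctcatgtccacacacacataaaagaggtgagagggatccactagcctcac
Krt14 (chr11:100206031-100206280, minus strand): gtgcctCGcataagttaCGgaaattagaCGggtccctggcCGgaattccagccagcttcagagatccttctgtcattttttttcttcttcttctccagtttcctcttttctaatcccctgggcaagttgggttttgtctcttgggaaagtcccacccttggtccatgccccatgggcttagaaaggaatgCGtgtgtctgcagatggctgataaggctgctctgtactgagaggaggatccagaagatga
Krt7 (chr15:101412153-101412402, plus strand): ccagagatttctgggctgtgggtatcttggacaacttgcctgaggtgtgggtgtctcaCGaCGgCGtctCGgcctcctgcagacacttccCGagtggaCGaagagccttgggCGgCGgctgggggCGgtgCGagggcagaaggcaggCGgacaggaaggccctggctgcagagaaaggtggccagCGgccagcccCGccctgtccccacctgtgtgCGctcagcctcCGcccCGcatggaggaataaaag
Krt20 (chr11:99438154-99438403, minus strand): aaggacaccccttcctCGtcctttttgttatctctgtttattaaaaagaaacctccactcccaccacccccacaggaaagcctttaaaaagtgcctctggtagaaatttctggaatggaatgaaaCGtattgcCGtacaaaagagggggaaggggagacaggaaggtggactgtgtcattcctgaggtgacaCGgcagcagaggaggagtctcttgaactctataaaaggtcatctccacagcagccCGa
Krt2 (chr15:101818170-101818419, minus strand): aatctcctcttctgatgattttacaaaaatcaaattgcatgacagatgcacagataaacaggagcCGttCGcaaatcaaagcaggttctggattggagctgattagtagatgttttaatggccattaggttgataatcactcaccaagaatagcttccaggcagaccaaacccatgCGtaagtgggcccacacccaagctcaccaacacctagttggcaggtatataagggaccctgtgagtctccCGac
Krtap4-7 (chr11:99644090-99644339, minus strand): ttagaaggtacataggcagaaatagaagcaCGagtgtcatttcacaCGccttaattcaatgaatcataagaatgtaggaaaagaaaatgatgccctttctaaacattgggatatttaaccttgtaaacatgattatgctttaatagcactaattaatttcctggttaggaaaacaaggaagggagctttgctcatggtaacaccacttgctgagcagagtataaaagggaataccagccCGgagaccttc
The 250 bases shown held 2 CpG in Krt84, 3 in Krtap4-7, 4 in Krt2, 5 in Krt14, 5 in Krt20 and 16 in Krt7. RefSeq promoters, taken as 300 bases that reach 50 bases past the start, were found for 44 of 57 member genes. They held a median of 4.5 CpG in 20 keratin genes and of 2 in 24 Krtap genes, against 7 over 27025 promoters. The letters TATAAA, searched on both strands, occurred in 11 of 20 keratin promoters (55%) and in 17 of 24 Krtap promoters (70.8%), against 14.2% of all promoters. In the hair shaft keratins they occurred in 5 of 7. The median share of G and C bases was 47.7% in keratin and 41.3% in Krtap promoters, against 52.7% in all promoters. The part of base content in the TATAAA counts was not tested, and the counts are not read as TATA boxes.

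In MeDIP, most keratin and Krtap promoters lay below 0, that is, on the labelled TKO side of the array ratio. The ratio is log2 of the channel labelled J1 over the channel labelled TKO, centred on each array's median, and the dyes were not swapped on any MeDIP array, so line and dye cannot be told apart and neither side is read here as the methylated line. At an adjusted p under 0.05 (limma, Benjamini-Hochberg over all promoters) and any size, 16 of 24 keratin promoters and 10 of 13 Krtap promoters lay below 0, against 31.1% of all promoters. Above 0 were 1 keratin and 0 Krtap promoters, against 26% of all promoters. The median ratio was -0.18 for keratin and -0.17 for Krtap promoters, against -0.0017 for all promoters.

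Few of these ratios were large. With a size of at least 0.5 required as well, 1 of 24 keratin promoters and 0 of 13 Krtap promoters were called on the labelled TKO side, where 2.58% of all promoters were called. On the labelled J1 side 0 of 24 and 0 of 13 were called, against 0.0752% of all promoters.

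Krt84, a type II hair keratin of hard tissues such as the tongue papillae, was the member promoter that was called. By its number it is grouped here with the hair shaft keratins. On replicates 1 to 7 its ratio was -0.336, -0.977, -0.724, -0.575, -0.731, -0.997, -0.873. Every array was below 0, and replicate 1 was the nearest to it. The mean was -0.74 ± 0.23 (SD, n = 7), with an adjusted p of 2.0e-05 in limma. Its probes did not share one value: the 4 probes at 909, 629, 408 and 156 bases before the array's start had mean ratios of -0.95, -0.90, -1.09 and -0.95, and the 2 probes at 112 and 393 bases after it had -0.31 and -0.26. With background corrected by normexp in place of Agilent's processed signals, the mean was -0.29, with an adjusted p of 0.03, and the size fell short of the call.

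Krt2, a type II keratin of the upper epidermis, lay just short of the size required. Its 7 ratios ran from -0.77 to -0.21 with a median of -0.48, all below 0, and the mean was -0.49 ± 0.18 (SD, n = 7; limma adjusted p = 5.0e-05). It passed the size when replicate 1 (-0.54) or replicate 3 (-0.51) was left out, and with the median over probes (-0.50).

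The type I hair shaft keratins followed. Krt35 ranged from -0.74 to -0.19 with a median of -0.44 and a mean of -0.45 ± 0.18 (SD, n = 7; limma adjusted p = 9.3e-05). Krt31 had a mean of -0.35 ± 0.10 (SD, n = 7; limma adjusted p = 3.6e-05), from probes 7027 to 4729 bases before its start, so this is not a value of its proximal promoter. Krt32 had a mean of -0.34 ± 0.12 (SD, n = 7; limma adjusted p = 8.9e-05), but with normexp it was -0.069, with an adjusted p of 0.40. In the main processing all 7 arrays were below 0 for each of these genes. By their numbers in the keratin nomenclature, a grouping made after the values were seen, the 7 hair shaft promoters had a median of -0.34 and the 15 epithelial ones of -0.17, with ranges that overlapped: -0.74 to -0.09 and -0.49 to 0.12. With normexp the medians were -0.18 and -0.15, and with probes above background alone -0.20 and -0.18. The 2 inner root sheath promoters, Krt27 and Krt71, had -0.31 and -0.10. The 15 type I promoters had a median of -0.17 and the 9 type II promoters of -0.18.

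The remaining keratin promoters lay between these and 0. Besides the promoters named so far, Krt20, Krt27, Krt23, Krt5, Krt13, Krt1, Krt82, Krt4, Krt16, Krt34 and Krt71 had means from -0.31 to -0.10 that passed an adjusted p under 0.05; with normexp Krt20, Krt27, Krt34 and Krt71 no longer did. For Krt1, whose product pairs with Krt10, and for Krt16 and Krt71, 1 array was above 0. The 7 that did not pass were Krt14, Krt87, Krt12, Krt15, Krt7, Krt9 and Krt10.

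At the other end were epithelial keratins. Krt17, a type I keratin of skin appendages and of wounded epidermis, was the member with a ratio above 0 at an adjusted p under 0.05. Its 7 ratios ran from -0.02 to 0.34 with a median of 0.06, 6 of them above 0, and the mean was 0.12 ± 0.13 (SD, n = 7; limma adjusted p = 0.041). It missed the threshold without replicate 1, 3, 4 or 5 (means of 0.12, 0.08, 0.10 and 0.13), with normexp (0.067, adjusted p = 0.30), with the median over probes (0.060, adjusted p = 0.12) and with probes above background alone (0.037, adjusted p = 0.32). Krt9, the keratin of palm and sole epidermis, had a mean of -0.0044 ± 0.063 (SD, n = 7). Krt10, which pairs with Krt1 in the suprabasal epidermis, had ratios from -0.26 to 0.26, on both sides of 0, and a mean of -0.0010 ± 0.21 (SD, n = 7).

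**Figure D1:**
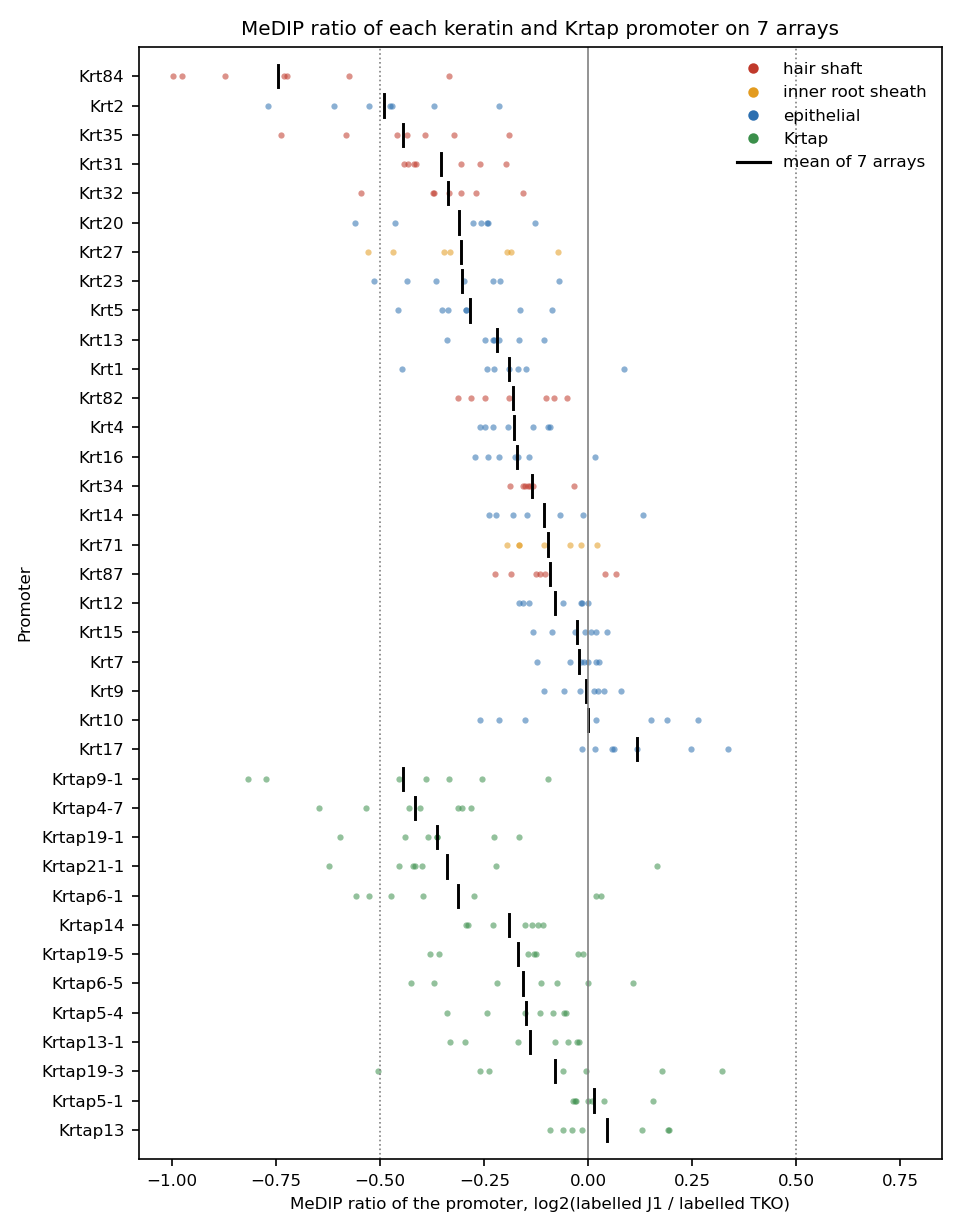
MeDIP ratio, log2 of the channel labelled J1 over the channel labelled TKO, of each of the 24 keratin and 13 Krtap promoters; points are the 7 arrays, black bars their mean, colours the class, and dotted lines the size of 0.5 required for a call. Krt84 at -0.74 is the promoter whose mean lies beyond a dotted line, and means above 0 belong to Krt17, Krtap13 and Krtap5-1.

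Among the Krtap promoters, the lowest were Krtap9-1 and Krtap4-7, both in the chromosome 11 cluster. Krtap9-1 ranged from -0.82 to -0.10 with a median of -0.39 and a mean of -0.45 ± 0.26 (SD, n = 7; limma adjusted p = 0.00074), and passed the size without replicate 6 (-0.50). Krtap4-7 ranged from -0.65 to -0.28 with a median of -0.40 and a mean of -0.42 ± 0.14 (SD, n = 7; limma adjusted p = 4.2e-05). All 7 arrays were below 0 for both. On chromosome 16, Krtap19-1 had a mean of -0.36 ± 0.14 (SD, n = 7; limma adjusted p = 0.00011) with every array below 0. Krtap21-1 had a mean of -0.34 ± 0.25 (SD, n = 7; limma adjusted p = 0.0029), with replicate 6 at 0.17 and the others below 0. None of these 4 passed with normexp, where Krtap9-1 was at -0.062, Krtap4-7 at -0.13, Krtap19-1 at -0.050 and Krtap21-1 at 0.18, with adjusted p of 0.67, 0.15, 0.74 and 0.44.

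Krtap6-1, Krtap14, Krtap19-5, Krtap6-5, Krtap5-4 and Krtap13-1 had means from -0.31 to -0.14 that also passed an adjusted p under 0.05. With normexp 8 of the 10 Krtap promoters below 0 no longer passed, and 5 of those 8 had means above 0.

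The highest Krtap promoters did not pass the threshold. Krtap13 ran from -0.09 to 0.19 with a mean of 0.04 ± 0.12 (SD, n = 7). Krtap5-1, of the chromosome 7 cluster, had a mean of 0.01 ± 0.07, and Krtap19-3 had a mean of -0.08 ± 0.28 (SD, n = 7) with arrays on both sides of 0. The 9 Krtap promoters on chromosome 16 had a median of -0.17.

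Keratin and Krtap promoters did not separate. The Krtap median minus the keratin median was 0.012, from -0.019 to 0.031 when each array was left out, so its sign is not settled. Among the promoters of part 2, which held every keratin, the same difference taken array by array ran from -0.27 to 0.21 with a mean of -0.05 ± 0.15 (SD, n = 7), and it was below 0 on 5 of 7 arrays. The keratin median was below 0 on 7 of 7 arrays, from -0.25 to -0.09, and the Krtap median on 7 of 7, from -0.43 to -0.01. The background correction changed the Krtap side: with normexp the Krtap median was 0.05, the keratin median was -0.13, and the number of Krtap promoters below 0 at an adjusted p under 0.05 was 2 in place of 10. Krtap promoters were dimmer, with a median log2 signal of 8.84 against 10.44 for keratin promoters and 9.83 for all promoters; the part of brightness in the result was not tested.

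**Figure D2:**
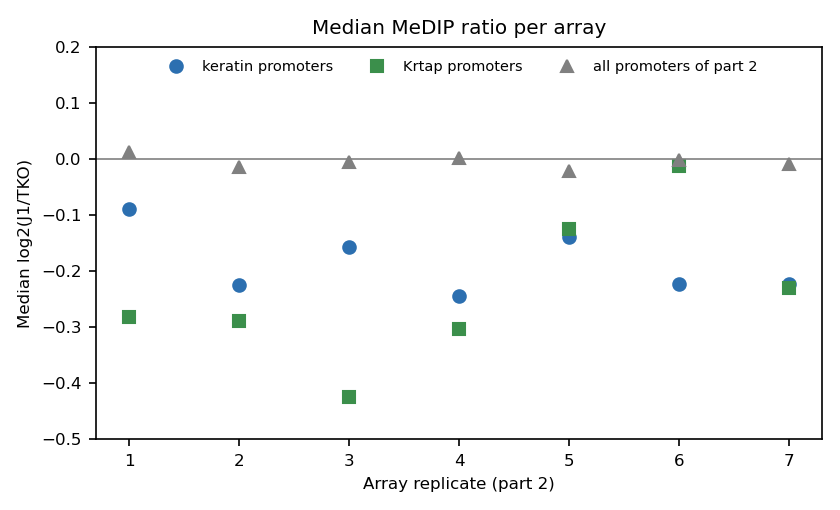
Median MeDIP ratio, log2(J1/TKO), on each of the 7 arrays of part 2, for keratin promoters, Krtap promoters and all promoters. Keratin medians lie between -0.25 and -0.09 and Krtap medians between -0.43 and -0.01, with the Krtap median above the keratin median on replicates 5 and 6.

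MeDIP ratios also differed with the CpG count of the promoter over the array as a whole. Promoters with 0 to 2 CpG in the RefSeq window had a median of -0.15 (n = 1427), those with 3 to 5 of -0.15 (n = 1200), those with 6 to 9 of -0.06 (n = 1099), those with 10 to 19 of 0.02 (n = 2701) and those with 20 or more of 0.05 (n = 4767). Of the 29 tested members with a RefSeq promoter, 28 held fewer than 10 CpG. Those with 0 to 2 CpG had a median of -0.15 (n = 10), those with 3 to 5 of -0.16 (n = 10) and those with 6 to 9 of -0.29 (n = 8). In the 2 lower ranges the members' median thus lay close to that of all promoters. In the range of 6 to 9 CpG it lay lower, at -0.29 against -0.06. Of the members in that range Krt12 had 8 CpG and the others 6, the low edge of the range, so -0.06 is not a value at the same CpG count. The part of CpG count in the members' ratios was not tested.

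**Figure D3:**
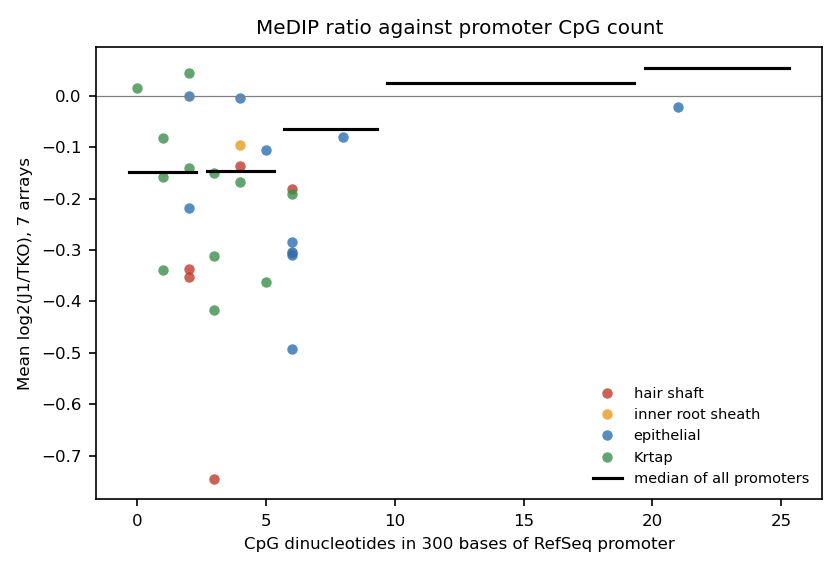
Mean MeDIP ratio of each tested member promoter, log2(J1/TKO) over 7 arrays, against the number of CpG in its 300-base RefSeq promoter; points are coloured by class and black lines give the median of all promoters with 0 to 2, 3 to 5, 6 to 9, 10 to 19 and 20 or more CpG (the last drawn to 25). Krt7, with 21 CpG and a ratio of -0.02, stands apart from the other members, and Krt84, with 3 CpG, is the lowest at -0.74.

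The RNA of 5 epithelial keratins rose in TKO cells and that of 1 fell, and no Krtap gene that was tested was called. Of 10 hair shaft keratins 0 passed the filter on dim probes, so none could be called. Of 3 inner root sheath keratins 1 was tested, and it was not called. RNA ratios are log2 of TKO over J1, with J1 taken as red (Cy5) on replicates 1 and 3 and green (Cy3) on replicate 2; the labels name the swapped replicate but allow either order, and this order is the likely one because it places Dnmt1, Dnmt3a and Dnmt3b lower in TKO, by log2 ratios of -1.07 (n = 2), -2.36 (n = 2) and -2.50 (n = 3). A gene was tested where its probe was well above background in J1 or in TKO on all 3 arrays. Of 31 keratin genes 9 passed, of which 5 were higher in the TKO line (limma, adjusted p under 0.05), against 16.9% of all genes tested, and 1 was lower, against 15.9%. Of 26 Krtap genes 4 passed, and 0 were higher and 0 lower. Over all 12015 genes tested 2035 were higher and 1905 lower; with median centring, without loess, the split was 372 and 579. Replicate 3 lost 8386 spots to outlier flags, so some genes rest on 2 arrays.

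Krt14, the type I keratin of basal epidermal cells, had ratios of 1.65 and 1.46 on replicates 1 and 2, with its spot left out on replicate 3. It rose by a mean of 1.55 ± 0.14 (SD, n = 2; limma adjusted p = 2.7e-05), which is 2.93-fold in this fit. Its promoter in MeDIP had a ratio of -0.11 ± 0.13 (SD, n = 7), with an adjusted p of 0.064. Krt5, its type II partner in basal cells, did not pass the filter, and its ratios were -0.21, -0.11 and -0.10.

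Krt7, a type II keratin of simple and ductal epithelia and of trophoblast, was measured by 2 probes. The brighter one had ratios of 1.44 and 1.44 on replicates 1 and 2 and no value on replicate 3, a mean rise of 1.44 ± 0.01 (SD, n = 2; limma adjusted p = 3.1e-05), or 2.71-fold. The other gave 1.44, 1.21 and 1.01 on the 3 arrays, all above 0. Its promoter, the one with 21 CpG, had a MeDIP ratio of -0.02 ± 0.05 (SD, n = 7).

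3 other keratins rose by less in this fit. Krt13, a type I keratin of the internal stratified epithelia, had ratios of 1.05, 0.49 and 0.61 and a mean of 0.72 ± 0.30 (SD, n = 3; limma adjusted p = 0.0012); its second probe was not well above background on any array. Krt23, a type I keratin, had 0.68, 0.46 and 0.79 and a mean of 0.64 ± 0.17 (SD, n = 3; limma adjusted p = 0.00073). Krt16, a type I keratin of hyperproliferative epidermis, had 0.35, 0.73 and 0.36 and a mean of 0.48 ± 0.22 (SD, n = 3; limma adjusted p = 0.005). All arrays were above 0 for each of these genes, and under median centring instead of loess, Krt23 and Krt16 were no longer called, at adjusted p of 0.095 and 0.30.

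Krt20, a type I keratin of gut and urothelial lining cells, was the member that fell. Its ratios were -0.49, -0.50 and -0.44, all below 0 and close together, with a mean of -0.48 ± 0.03 (SD, n = 3; limma adjusted p = 0.0018). With median centring the ratio was -0.56 with an adjusted p of 0.077, short of the threshold.

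The sizes of these ratios depended on the background correction. With Agilent's processed signals in place of normexp and loess all 6 genes kept their direction and call, but the log2 ratio was 2.29 for Krt14 (4.89-fold), 1.60 for Krt13, 1.49 for Krt7, 1.25 for Krt23, 0.79 for Krt16 and -1.02 for Krt20, and Krt13 stood above Krt7. In the authors' deposited table, on a log10 scale, Krt14 stood at 0.66, Krt13 at 0.48, the brighter Krt7 probe at 0.43, Krt23 at 0.38, Krt16 at 0.24 and Krt20 at -0.31.

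Of the other members that passed, Krt10 (-0.55, -0.26 and 0.02), Krt12 of the cornea (-0.03, 0.15 and -0.06) and Krt28 of the inner root sheath (0.10, -0.05 and 0.11) were not called, and Krt10 was called lower, at -0.41, without replicate 3. The Krtap genes that passed were Krtap3-1 (-0.15 and -0.18 on 2 arrays), Krtap6-3 (-0.05, 0.07 and -0.21), Krtap6-1 (-0.14, 0.10 and -0.02) and Krtap19-1 (-0.15, 0.14 and 0.09). Apart from Krtap3-1, each Krtap gene had arrays on both sides of 0. The other probes of Krtap3-1, Krtap19-1 and Krt12 were not well above background on any array. Those of Krtap6-1 and Krt10 were so on at most 2 arrays in either line. Krtap genes of one subfamily are near copies of each other, so a probe may measure more than its named gene.

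**Figure D4:**
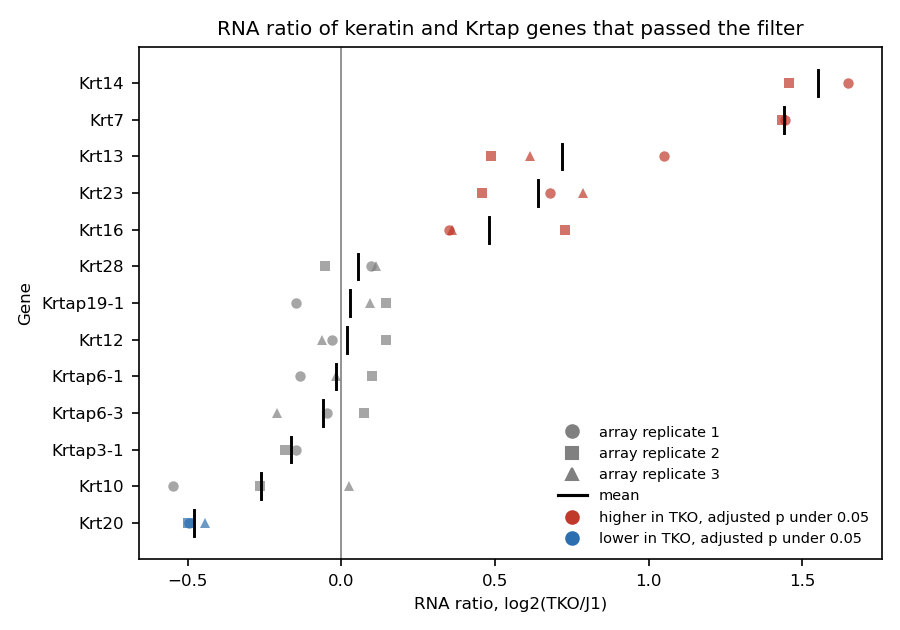
RNA ratio, log2(TKO/J1), of the 9 keratin and 4 Krtap genes that passed the filter; symbols are the 3 arrays, black bars the mean, red genes higher in TKO and blue lower at an adjusted p under 0.05. Krt14 and Krt7 lie at 1.55 and 1.44 with values from 2 arrays each, and the 4 Krtap means lie between -0.16 and 0.03.

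Most hair genes did not pass the filter on these arrays. Of 10 hair shaft keratin genes 0 passed, where 12015 of 27703 genes passed over the whole array. No probe was well above background on any array in either line for 6 of these 10, for 15 of 26 Krtap genes and for 2 of 17 epithelial keratins. That share over all genes is not given here. The filter asks for all 3 arrays, and on replicate 3 only 39.6% of probes in J1 and 38.6% in TKO were well above background. Krt84 and Krt17 were so in both lines on 2 arrays. Among members that did not pass, and with no test, the highest and lowest ratios of keratins were 0.38 for Krt84 (0.82, 0.26 and 0.05) and -0.20 for Krt71 (-0.24, -0.20 and -0.17), and those of Krtap genes were 0.072 for Krtap3-2 and -0.10 for Krtap16-3. Next below Krt84 was Krt17 at 0.28 (0.23 and 0.33 on 2 arrays). Without any filter on dim probes, the median over 31 keratin genes was 0.019 and that over 26 Krtap genes -0.0035, against -0.0027 over 27694 genes; 5 keratin and 0 Krtap genes were then higher in TKO, against 8.24% of all genes, and 2 keratin (Krt20 and Krt71) and 0 Krtap genes lower, against 7.34%.

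The 2 assays can be set side by side for the members with a value in both. The 6 keratin promoters whose RNA was called had a median MeDIP ratio of -0.20 and ranged from -0.31 to -0.02. The 16 keratin promoters whose RNA did not pass the filter had a median of -0.19 and ranged from -0.74 to 0.12. The ranges overlapped, and Krt23 and Krt20, whose RNA went opposite ways, had MeDIP ratios of -0.30 and -0.31. With normexp these were -0.23 for Krt23 and -0.027 for Krt20. The Krt20 probe nearest the start lay 721 bases before it, so its ratio is not a value of the proximal promoter.

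Genes that work with keratins in skin and hair were listed from cornified envelope, desmosome, hair shaft and regulator genes. Of 91 listed genes 83 were on the expression array and 23 passed the filter; in TKO cells 5 rose, against 16.9% of all genes tested, and 3 fell, against 15.9%, and the median ratio was 0.024. Gata3, a transcription factor of hair follicle and trophoblast, rose by 2.01 ± 0.27 (SD, n = 2), and Lhx2, a regulator of hair follicle stem cells, rose by 0.73 ± 0.11 (SD, n = 3). Lef1, a Wnt effector that acts in hair development, was lower at -1.09 ± 0.21 (SD, n = 3), and Itgb4, an integrin of hemidesmosomes, at -0.92 ± 0.03 (SD, n = 2). Hoxc13, Foxn1, Trp63 and Dlx3, regulators of hair and epidermis, did not pass the filter. For the listed genes 64 promoters were tested in MeDIP, with a median ratio of -0.04. With the size of 0.5 required, 0 were called below 0, against 2.58% of all promoters, and 0 above 0, against 0.0752%. At a limma adjusted p under 0.05 and any size, 19 of 64 lay below 0, against 31.1% of all promoters. Above 0 were 9 of 64, against 26%.

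RNA of markers of several cell types also differed between J1 and TKO cells. In TKO cells 9 of 9 measured primitive endoderm markers were higher, against 16.9% of all genes tested. So were 4 of 5 measured trophoblast markers (Krt7 among them) and 4 of 5 measured fibroblast markers, while the fibroblast marker Vim was lower at -0.54. Of 7 measured ES cell markers 4 were lower, against 15.9%. Only 5 of 14 listed trophoblast markers passed the filter, and Cdx2, Elf5, Eomes, Hand1, Tfap2a, Ascl2, Tpbpa, Psg17 and Pcdh12 did not. Gata4, Sox7 and Foxa2 of endoderm, Col3a1, Thy1, Fbn1 and Postn of fibroblasts, and Nanog and Utf1 of ES cells did not pass either. Of 7 epidermal keratinocyte markers 3 passed, with Krt14 and Lor higher, while Krt5, Krt1, Ivl and Trp63 did not pass. Levels were also summed over the markers measured on all 3 arrays. For primitive endoderm (5 genes) the summed log2 level ran from 9.46 to 10.16 in J1 and from 11.12 to 11.49 in TKO. For ES cells (3 genes, Klf2, Sox2 and Dppa5a) it ran from 15.93 to 16.35 in J1 and from 16.02 to 16.75 in TKO. Of these, Klf2 and Sox2 were lower in TKO at -0.94 and -0.80. Dppa5a was at 0.53 and not called, with ratios of 0.66, -0.23 and 1.17. Pou5f1 and Esrrb, both lower, and Tdgf1 and Zfp42, not called, had values on 2 arrays and were not in the ES cell sum. For keratinocytes (2 genes, Krt10 and Lor) the summed level ran from 8.52 to 8.77 in J1 and from 8.31 to 8.84 in TKO. Krt14 had values on 2 arrays and was not in that sum. The part of other cell types in the keratin ratios was not tested, and in bulk RNA fewer cells of a type and less RNA per cell cannot be told apart. Krt8, Krt18 and Krt19, left out of the members, were higher in TKO by 2.90, 2.36 and 1.45 on the log2 scale, and their MeDIP ratios were -0.12, -0.13 and 0.04.

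In the MeDIP arrays 88.2% to 99.7% of probes were well above background per channel, and in the expression arrays 38.6% to 66.8%. The number of arrays limits the precision of these ratios. Pairs of MeDIP arrays of one part correlated at 0.52 to 0.88 over promoters.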

How the data were processed

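Members and gene lists were chosen with earlier results of these data known. Agilent Feature Extraction 8.5 is named in the submitters' processing notes; the file headers give 8.5.1.1 for MeDIP and for expression replicate 1 and A.7.5.1 for the other 2. The deposited scanner intensity columns were used: for MeDIP the processed signals, dye-normalized linearly per the file headers, centred on each array's median, with no loess. Each probe was given to the nearest annotated start, split at gaps over 2000 bases, and promoters with at least 3 probes were averaged over probes. Expression used mean and background intensity as deposited, normexp (offset 50) and loess; the brightest probe per gene was kept. Flagged outlier spots were left out. limma 3.58.1 in R 4.3.3 tested each ratio against 0 with Benjamini-Hochberg adjustment over all promoters or genes. The authors' deposited tables hold log10 ratios and were used as a check: the expression table correlated with the fitted ratios at 0.85 over all probes; its centring is not given. The sources used here do not give the array's genome build, so RefSeq (GRCm38.p6) served for names and sequences only. Both models were tested on simulated data. Promoters described with their values are the called member and, besides it, the lowest 4 and highest 3 of each family in MeDIP; the remaining promoters are listed to account for every member. Genes described for RNA are those that passed the filter, and the highest and lowest per family among the others, with Krt5 and Krt17 added after their values were seen. Alternatives were background correction, normalization, probe summary and filter, promoter definition, slide and each array left out.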

Additional observations from a re-analysis of the deposited data

Results flagged for a closer look

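For the Krtap5-1 promoter, replicate 2 stood apart from the other 6 MeDIP arrays at 0.16, with the next highest array at 0.04. Of 18 promoters and medians checked for an array far from the rest this was the only one, and chance gives about 1 in 20 of such cases.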

How the results depend on the processing

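Of the comparisons of keratin and Krtap families, those not named here stayed within 1.5 times the reported count, or within 1 SD of the reported median, in the alternatives that were run. With normexp, 0 keratin promoters were called on the labelled TKO side, the Krtap median turned to 0.048 and the Krtap minus keratin difference grew to 0.18; that difference, reported as 0.012, was -0.0017 with the median over probes and -0.019 to 0.031 with an array left out. At any size, 2 Krtap promoters lay below 0 with normexp and 6 with the median over probes, in place of 10, and 0 keratin promoters above 0 with normexp, the median over probes or probes above background, in place of 1. With the median over probes, 2 keratin promoters were called. With each array left out, 1 to 2 keratin and 0 to 1 Krtap promoters were called there. For RNA, median centring called 3 keratin genes higher and 0 lower, no filter called 2 lower, and leaving out an array gave 3 to 5 higher and 1 to 2 lower; without replicate 1 or 2, Krt14 and Krt7 had 1 array left and were not tested. In other cases the cause was not tested. Single promoters turned direction as follows. Krt10 was at 0.24 with normexp, 0.15 with loess, 0.034 with the median over probes, 0.0066 with the slide as a block, and -0.045 to 0.042 with an array left out, Krt9 at -0.018 to 0.013 with an array left out, Krtap21-1 at 0.18 with normexp, Krtap19-3 at 0.14 with normexp and 0.027 with loess, and Krtap5-1 at -0.068 with normexp, -0.038 with loess and -0.0089 to 0.023 with an array left out. Of the RNA ratios, Krtap6-1 was at 0.0073 with Agilent's processed signals, 0.012 with a dye-effect term and -0.076 to 0.042 with an array left out, Krtap19-1 at -0.13 with median centring and -0.027 to 0.12 with an array left out, Krtap6-3 at -0.13 to 0.014 and Krt12 at -0.046 to 0.058 with an array left out. None of these was called. Counts of promoters at any size were added after seeing the data. The scan date was not run as a block because each date held 1 array of a part, and the slide block ran on part 2 only. No paired analysis was possible because each ratio is taken within an array and the 2 parts hold different promoters. Signal over background limits the RNA of the hair genes, most of which did not pass the filter.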
